A study of Mus musculus with 8 samples.

Results

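CXC chemokines are small secreted proteins that carry 2 cysteines separated by 1 residue near their N-terminus and that direct the migration of leukocytes. The 6 genes described here are Cxcl1, Cxcl2, Cxcl10, Cxcl11, Cxcl14 and Cxcl16, taken by symbol from a count table of 23143 genes. They were followed in RAW264.7 cells, a mouse macrophage line, that received lipopolysaccharide (LPS, the cell wall component of Gram-negative bacteria) at 100 ng/ml for 15 to 90 min in steps of 15 min or for 120 min, and in untreated cells (0 min). RNA-seq was done on 1 library per time point, 8 in all, after removal of ribosomal RNA. The labels call the RNA fraction cytoplasmic, whereas the study's methods describe total RNA. Because no time point was replicated, a test between 2 libraries compares those libraries and not the conditions, and the intervals given below cover counting error only.

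LPS is sensed by Toll-like receptor 4, which activates NF-κB, AP-1 and interferon regulatory factors in macrophages. Cxcl1 and Cxcl2 bind the receptor Cxcr2 and attract neutrophils. Cxcl10 and Cxcl11, known as interferon-inducible chemokines, bind Cxcr3 on activated T cells and natural killer cells. Cxcl16 is made as a transmembrane protein, binds Cxcr6 and is shed by the protease Adam10, and Cxcl14 is a chemokine of healthy epithelia.

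In the GRCm38 assembly, 4 of the 6 genes lie on chromosome 5, in 2 small clusters of CXC chemokine genes. Cxcl1 (90891245 to 90893121) and Cxcl2 (90903899 to 90905938) are in the first, and Cxcl10 (92346638 to 92348889) and Cxcl11 (92359544 to 92363296) are in the second, within the span of Art3. Cxcl14 is on chromosome 13 (56288643 to 56296811) and Cxcl16 on chromosome 11 (70454389 to 70459984). RefSeq lists Cxcl11 as a transcribed pseudogene in this assembly and the other 5 as protein-coding.

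Promoter windows of 300 bases (250 before the start and 50 after it, RefSeq, GRCm38.p6) were found for Cxcl1, Cxcl2, Cxcl10 and Cxcl14. Both strands were searched for GGG and TTCC set apart by any 3 bases (NF-κB type, present in 5.56% of 32851 promoters of this length), for GAAA repeated after any 2 bases (interferon response type, 3.44%) and for TGANTCA (AP-1 type, 7.81%). The stretches below are shown because they place the same NF-κB type letters before Cxcl1 and Cxcl2, whose levels were very different, and set the promoter of Cxcl10, which rose, beside that of Cxcl14, which had a falling trend. Capitals mark the match, and all are read 5′ to 3′ on the strand of the gene.
Cxcl1, 71 bases before the start, chr5:90891164-90891193, plus strand: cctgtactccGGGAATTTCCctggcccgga
Cxcl2, 97 bases before the start, chr5:90903792-90903821, plus strand: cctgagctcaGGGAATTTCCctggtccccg
Cxcl2, 78 bases before the start, chr5:90903811-90903840, plus strand: cctggtccccGGGCTTTTCCagacatcgtg
Cxcl10, 159 bases before the start, chr5:92349029-92349058, minus strand: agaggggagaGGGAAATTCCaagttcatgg
Cxcl10, 104 bases before the start, chr5:92348974-92349003, minus strand: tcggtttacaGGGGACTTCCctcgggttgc
Cxcl10, 213 bases before the start, chr5:92349083-92349112, minus strand: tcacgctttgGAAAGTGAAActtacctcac
Cxcl14, 172 bases before the start, chr13:56296704-56296733, minus strand: gtgtccacagGAAACAGAAAagcagcaccc

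The first 5 stretches hold the NF-κB type letters and the last 2 the interferon response type. The match 71 bases before Cxcl1 and that 97 bases before Cxcl2 each read on both strands, shifted by 1 base, and Cxcl1 had 1 more match on the reverse strand, 89 bases before the start. Cxcl10 was the one promoter of the 4 with an AP-1 type match, 74 bases before the start. The Cxcl14 promoter held no NF-κB type letters. A match is a description of the letters and was not tested as a binding site.

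The transcripts also differed in the pentamer ATTTA, the core of AU-rich elements, which are known to mark unstable mRNAs. In the 3′ UTR annotated by GENCODE, Cxcl2 had 11 ATTTA in 734 bases (15 per kb) and Cxcl1 had 7 in 592 bases (11.8 per kb). Of 11298 genes with an annotated 3′ UTR and a mean count of at least 10, 99.7% had a lower density than Cxcl2 and 99.4% a lower one than Cxcl1. Cxcl10 had 2 in 729 bases, Cxcl16 had 2 in 1421 bases, Cxcl11 had 1 in 1218 bases and Cxcl14 had none in 1149 bases, around a median of 1.25 per kb over those genes. The pentamer and the promoter letters were looked at after the expression values were known.

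The libraries held 100250892 (75 min) to 159077286 (120 min) counts. Counts were divided by a size factor per library (0.71 to 1.23) to give normalised counts, and compared between genes as rpkm, which scales counts by the length of unique sequence and by the library total. The 45S ribosomal precursor Rn45s took 8.18 to 9.11% of the counts at 0, 30, 60 and 120 min and 13 to 20.5% at 15, 45, 75 and 90 min. The 7 macrophage markers listed (Cd68, Csf1r, Itgam, Emr1, Lyz2, Cd14 and Mrc1) summed to 667139 to 770731 normalised counts. Most of this sum was Lyz2 (395911 to 492761). Cd14 was called higher from 60 min on (3.65-fold at 120 min), and Mrc1 was low, with at most 36.8. The epithelial markers Epcam, Cdh1 and Krt18 were at 0 in every library, the 4 T cell markers summed to at most 15.8 with Cd3g at 0 throughout, and the 3 B cell markers to at most 14.2. Fibroblast markers summed to at most 0.855 with Col1a1 and Col1a2 at 0, endothelial markers to at most 35.2, and the 2 neutrophil markers in the table to at most 5.71.

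Within 120 min of LPS, 5 of the 6 CXC chemokine mRNAs became more abundant and Cxcl14, the most abundant of them per length at the start, did not. A gene was called higher or lower where the log2 ratio to 0 min was beyond 0.5 with an unadjusted p under 0.05 in an exact negative binomial test of the 2 libraries in the form used by DESeq. By this rule Cxcl2 was higher from 15 min on, Cxcl10 from 30 min, Cxcl11 from 60 min, Cxcl16 from 90 min and Cxcl1 at 120 min only, and none of the 6 was lower at any time, where 0.147, 0.183, 1.36, 2.16, 3.13, 4 and 6.18% of all genes were called lower in time order. The number called higher thus went from 1 of 6 after 15 min, beside 0.265% of 16967 genes, to 2 both in the 30 min library (1.04% of all genes) and in the 45 min library (3.42%). It was 3 in the 60 min library (3.14%) and the 75 min library (4.3%), 4 in the 90 min library (5.24%) and 5 in the 120 min library (7.05%). For the 5 genes with counts at 0 min, the median log2 ratio was -0.04 after 30 min, 1.49 after 60 min of LPS and 3.63 after 120 min, and the median over all genes with a ratio was between -0.02 and 0.03 at all times. The comparisons share the 0 min library, and in bulk RNA a change in the number of expressing cells and in the mRNA per cell cannot be told apart.

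**Figure D1:**
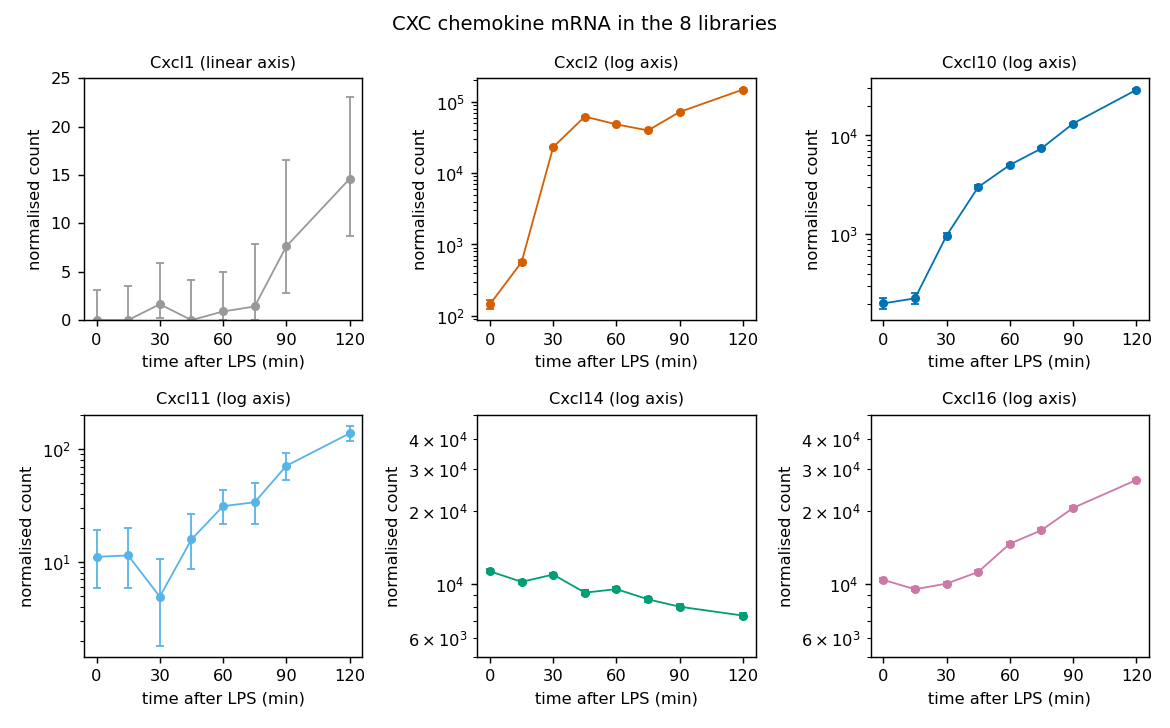
Normalised counts (y axis, logarithmic except for Cxcl1) of the 6 CXC chemokine genes against time after LPS in min, 1 library per point, with exact Poisson 95% intervals. Cxcl2 reached 62410.2 by 45 min and was highest at 120 min (149203), as were Cxcl10 and Cxcl16. Cxcl14 went from 11294 to 7405, and Cxcl1 did not exceed 14.6.

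Cxcl2, a neutrophil attractant, was the earliest to change and ended as the most abundant. From 0 to 120 min its normalised counts were, in time order, 145, 566, 23209, 62410.2, 48402, 39878, 72439 and 149203. Every LPS library was thus above the untreated one, and the 60 and 75 min libraries were below the 45 min library. Against the untreated library it had increased 3.92-fold (95% interval 3.3 to 4.67) after 15 min, 161-fold (138 to 188) by the 30 min library, 432-fold (371 to 505) by 45 min and 1032-fold (888 to 1207) after 120 min. The step from 15 to 30 min, a ratio of 41 (37.8 to 44.5), was called higher, as were 0.796% of all genes over these 15 min. Among 10494 genes with a mean normalised count of at least 100, the ratio of Cxcl2 to 0 min ranked 5 after 15 min, 2 in the next 2 libraries, and 4 to 7 later on.

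In between, the 75 min library held 0.639 times (0.63 to 0.648) the Cxcl2 mRNA of the 45 min library, a difference beyond counting error. It was not called (log2 ratio -0.65, p = 0.0655, exact negative binomial test of 2 libraries), while 2.04% of all genes were called lower between these libraries. With other scales of the libraries, added after the data were seen, the ratio was 0.578 to 0.632 and p 0.0557 to 0.0598. Both libraries belong to those with a high share of Rn45s. The increase that followed was called both from 75 to 90 min, a ratio of 1.82 (1.79 to 1.84; 0.224% of genes called higher), and from 90 to 120 min, a ratio of 2.06 (2.04 to 2.08; 0.831%).

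Cxcl1, which lies next to Cxcl2 and shares its receptor, was almost silent. Its raw counts were 0, 0, 2, 0, 1, 1, 6 and 18 in time order, so that the libraries up to 75 min held at most 2 reads and the last one the most. Taking 3 counts per library as the limit that a count of 0 allows, the limit at 0 min was 2.57 normalised counts. Cxcl1 stood at 5.68 times this limit at 120 min (p = 0.00919, exact negative binomial test of 2 libraries). At 90 min it stood at 2.97 times the limit and was not called. These ratios leave out the counting error of the later libraries. The normalised count was 14.6 (8.65 to 23.1) at 120 min and 7.62 (2.8 to 16.6) at 90 min. The call at 120 min was lost with Benjamini-Hochberg adjustment and with a minimum mean normalised count of 10, below which Cxcl1 lies (3.27), and with edgeR the 90 min library was called as well. In the same 120 min library the rpkm of Cxcl2 was 9173 times that of Cxcl1 (5804 to 15478). None of the 896 sequences of 58 bases in the Cxcl1 transcript came within 2 mismatches of Cxcl2, and the nearest had 8.

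Cxcl10 rose steadily after a short delay. Its normalised count was 201, 226, 974, 3011, 5032, 7396, 13189.9 and 28895 from 0 to 120 min in time order, each library above the one before. The 15 min library did not differ from 0 min beyond counting error, with a ratio of 1.13 (0.937 to 1.35). It was 4.85-fold (4.21 to 5.6) above 0 min in the 30 min library, 15-fold (13.1 to 17.2) after 45 min, 25-fold (22 to 28.6) after 60 min and 144-fold (126 to 164) in the last library. Each step from 15 min on was called higher in its own right except that from 60 to 75 min. The largest were those from 15 to 30 min (log2 ratio 2.11) and from 30 to 45 min (1.63). Of all genes, 0.796% were called higher from 15 to 30 min, 0.224% from 75 to 90 min and 0.831% from 90 to 120 min. By size of its ratio to 0 min Cxcl10 moved from rank 1722 of 10494 genes after 15 min to rank 42 in the 30 min library and rank 14 in the last.

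Cxcl11, the second Cxcr3 ligand among the 6, rose late and from a level near the limit of detection. Its normalised count was 11.1, 11.4, 4.91, 15.8, 31.2, 33.8, 71.1 and 138 in time order, from 6 raw counts at 30 min to 170 at 120 min. The first 4 libraries overlapped within their counting intervals. The later libraries stood above 0 min by 2.8-fold (1.45 to 5.77) at 60 min, 3.04-fold (1.49 to 6.5) after 75 min, 6.39-fold (3.45 to 12.7) in the 90 min library and 12.4-fold (7.05 to 23.7) in the last. The calls at 60 and 75 min were lost with total counts as the scale, with edgeR, with the minimum mean of 10 and with Benjamini-Hochberg adjustment, and those at 90 and 120 min were not.

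Within each library Cxcl10 and Cxcl11 could be compared directly. The rpkm of Cxcl10 was 26.6 times (15.2 to 50.6) that of Cxcl11 at 0 min and 29.1 times (16.4 to 57.2) at 15 min. It was 291 times (134 to 796) in the 30 min library, 237 times (170.4 to 341) after 60 min and 308 times (265 to 360.5) in the last. The ratio was thus higher from 30 min on, and the intervals of those 6 libraries all overlapped one another.

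**Figure D2:**
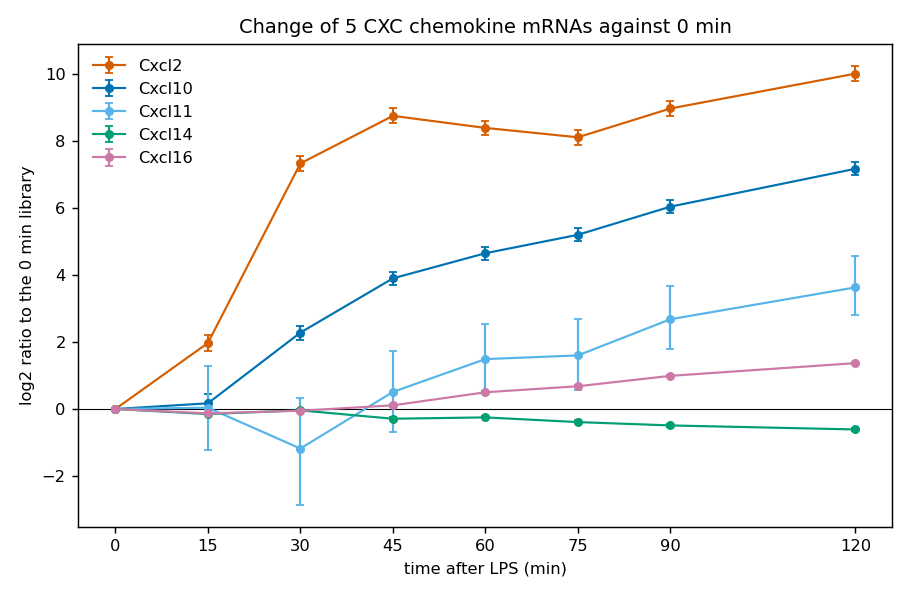
Log2 ratio of the normalised count to the 0 min library (y axis) against time after LPS in min for the 5 genes with counts at 0 min, with exact conditional binomial 95% intervals for counting error. Cxcl2 was at 7.33 by 30 min, when Cxcl10 was at 2.28 and Cxcl16 at -0.05, and at 120 min the order was Cxcl2 (10.01), Cxcl10 (7.17), Cxcl11 (3.63), Cxcl16 (1.37) and Cxcl14 (-0.61).

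Cxcl16, the membrane-bound chemokine, was abundant in untreated cells and rose gradually from the 60 min library on. Its normalised count was 10404, 9516, 10039, 11223, 14683, 16694, 20651 and 26948 in time order, with the first 4 libraries close together and each later one above the one before. Against 0 min it stood at 1.41 times after 60 min and 1.6 times (1.56 to 1.65) in the 75 min library, neither of them called, and then at 1.98 times (1.94 to 2.03) after 90 min and 2.59 times (2.54 to 2.64) in the last library. The call at 90 min was lost with total counts as the scale, with Benjamini-Hochberg adjustment and with a log2 limit of 1, and that at 120 min was kept in all 3. The 75 min library was called with the minimum mean of 10 and after removal of a trend with transcript length. Of its 2533 sequences of 58 bases, 306 are shared with the overlapping gene Zmynd15, and reads from these cannot be assigned to either gene.

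Cxcl14 went the other way. Its normalised count was 11294, 10209, 10947, 9214, 9526, 8643, 8058 and 7405 in time order, highest in the untreated library and lowest at 120 min. The ratio of 120 min to 0 min was 0.656 (0.638 to 0.673), and it was not called (log2 ratio -0.61, p = 0.0816, exact negative binomial test of 2 libraries). It was called lower at 120 min with total counts without Rn45s as the scale and with the minimum mean of 10.

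A trend over the 8 libraries needs no replicate of a time point, and it was tested for each of 12166 genes with a mean normalised count of at least 10, which leaves out Cxcl1. Spearman's rho with time reached 1 for Cxcl10 (exact permutation p = 5e-05, the smallest that 40320 orderings allow, adjusted p = 0.00134), with Pearson's r 0.97 (permutation p = 5e-05, adjusted p = 0.0011). For Cxcl14 rho was -0.95 (exact permutation p = 0.00114, adjusted p = 0.00768) and r was -0.96 (permutation p = 3.97e-04, adjusted p = 0.00297), so that its decrease, too small for the test of 2 libraries, was ordered in time. Cxcl11 and Cxcl16 both had a rho of 0.93 (exact permutation p = 0.00223, adjusted p = 0.0114), with r 0.91 (permutation p = 0.00201, adjusted p = 0.00851) and 0.96 (permutation p = 1.24e-04, adjusted p = 0.00157). Cxcl2, with its dip, had a rho of 0.90 (exact permutation p = 0.00456, adjusted p = 0.0189) and r 0.84 (permutation p = 0.00422, adjusted p = 0.0145). A rising trend passed for 17.6% of the genes tested and a falling one for 17.3% by rho (21.7% and 22.5% by r), beside 4 and 1 of the 5 chemokines. The p-values are two-sided and adjusted by Benjamini-Hochberg over all genes tested.

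Without the 0 and 120 min libraries, those farthest from the median time, r was 0.97 for Cxcl10, 0.98 for Cxcl16, 0.89 for Cxcl11, 0.75 for Cxcl2 and -0.90 for Cxcl14. The sets of low and high Rn45s share hold 4 libraries each, too few for a correlation within a set. Cxcl10 rose at all 3 steps in both sets, and Cxcl14 fell at all 3 steps in both. Cxcl2 rose at all 3 steps between the 0, 30, 60 and 120 min libraries, and at 2 of 3 steps between the 15, 45, 75 and 90 min libraries. Cxcl11 and Cxcl16 each rose at 2 of 3 steps in the first set and at all 3 in the second.

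By the rules of the study, which group genes by the maxima and minima of their time course, the 5 chemokines called higher fell in the group whose first maximum comes at 60 min or later with no minimum before it (g1), and Cxcl14 in the group without a called change (g0). Each of the 5 had 1 maximum, at 120 min. Without the 120 min library, an alternative added after the data were seen, Cxcl1 moved to g0 and the other 4 stayed in g1. Of the 16967 genes with a count, 7.34% were in g1. The dip of Cxcl2 was not counted as a minimum because it was not called.

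Levels can also be set against the 120 min library of the same gene. At 0 min Cxcl16 already stood at 38.6% of its 120 min level, Cxcl11 at 8.07%, Cxcl10 at 0.696% and Cxcl2 at 0.0969%. At 45 min Cxcl2 was at 41.8%, Cxcl10 at 10.4%, Cxcl11 at 11.5% and Cxcl16 at 41.6%. For Cxcl11 this was not beyond counting error from 0 min (ratio 1.42, 0.62 to 3.29). At 90 min Cxcl2 was at 48.6%, Cxcl10 at 45.6%, Cxcl11 at 51.6% and Cxcl16 at 76.6%. At 45 min Cxcl2 was thus closer to its own 120 min level than Cxcl10 was. The scale makes all genes equal at 120 min. The smaller distance between Cxcl2 and the Cxcr3 ligands at 90 min therefore cannot be told apart from an effect of the scale.

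Per length, the make-up of the CXC chemokine mRNA changed from Cxcl14 and Cxcl16 to Cxcl2. At 0 min the summed rpkm of the 6 genes was 102, of which Cxcl14 was 56% and Cxcl16 41%, with 1.7% for Cxcl10 and 1.27% for Cxcl2. By 30 min the sum was 305 and the share of Cxcl2 66.6%, and at 45 min it was 593 and 82.6%. At 120 min the sum was 1502, of which Cxcl2 was 77.1%, Cxcl10 14.4%, Cxcl16 6.25% and Cxcl14 2.16%. The shares describe 1 library each and were not tested.

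**Figure D3:**
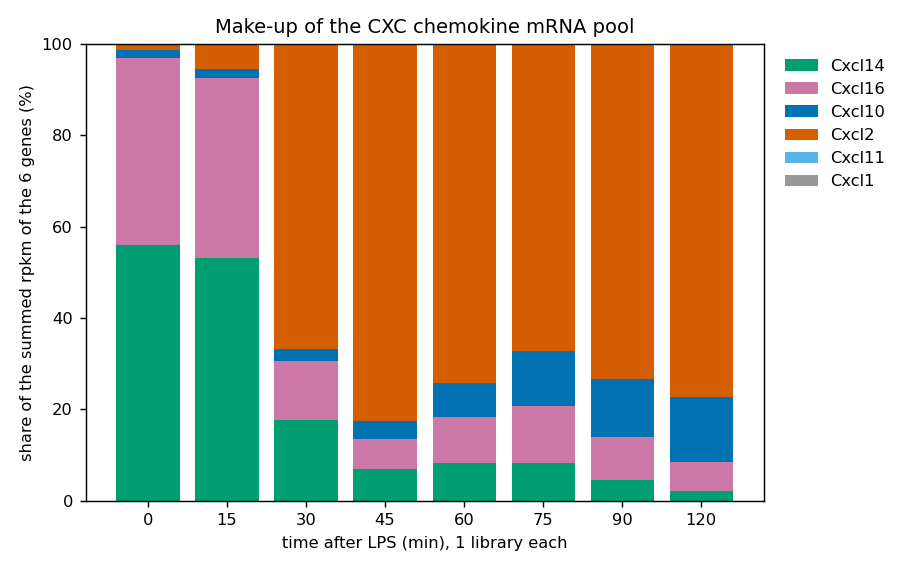
Share of each gene in the summed rpkm of the 6 CXC chemokine genes (y axis, %) in each library (x axis, min after LPS), as stacked bars that reach 100. Cxcl14 and Cxcl16 filled the bar at 0 min (56% and 41%) and Cxcl2 had 66.6% at 30 min and 77.1% at 120 min, whereas Cxcl11 and Cxcl1 are too small to see.

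Among all 22571 genes with a transcript length, Cxcl2 moved from rank 9527 by rpkm in untreated cells to rank 347 after 30 min and rank 66 after 120 min. Cxcl10 moved from rank 9193 to rank 328 at 120 min, and Cxcl11 from rank 11593 to rank 9789. Cxcl16 went from rank 2168 to rank 919, and Cxcl14 from rank 1381 to rank 2279. These 2 genes were thus already among the more abundant mRNAs of the untreated cells.

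The order of levels within a library, per length, changed with time. At 0 min it was Cxcl14 with 56.9 rpkm, Cxcl16 with 41.7, Cxcl10 with 1.73, Cxcl2 with 1.29 and Cxcl11 with 0.0651, with Cxcl1 at a count of 0. Neighbours in this order differed beyond counting error, as the ratio of Cxcl2 to Cxcl10 was 0.747 (0.609 to 0.914) and that of Cxcl16 to Cxcl14 was 0.732 (0.714 to 0.75). At 120 min it was Cxcl2 with 1158 rpkm, Cxcl10 with 216, Cxcl16 with 93.9, Cxcl14 with 32.5, Cxcl11 with 0.701 and Cxcl1 with 0.126. Cxcl14 and Cxcl16 thus went from the first 2 places to below Cxcl2 and Cxcl10.

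The ratio of Cxcl2 to Cxcl10, which is independent of the scale of a library, was not steady. It was 2.6 after 15 min, 24.7 (23.3 to 26.2) in the 30 min library, 21.5 after 45 min and 9.98 after 60 min. In the last 3 libraries it was 5.6 (5.43 to 5.77), 5.7 (5.58 to 5.82) and 5.36 (5.3 to 5.42). Cxcl10 passed Cxcl14 between 60 min, with a ratio of 0.902 (0.873 to 0.931), and 75 min, with 1.46 (1.41 to 1.52). It passed Cxcl16 between 75 min (0.951) and 90 min (1.37). With the longest transcript as the length, this crossing fell between 60 and 75 min. Cxcl10 was then at 38.4 and 47.9 rpkm in these libraries, and Cxcl16 at 45.4 and 43.8. Cxcl16 passed Cxcl14 between 45 min (0.968) and 60 min (1.23).

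**Figure D4:**
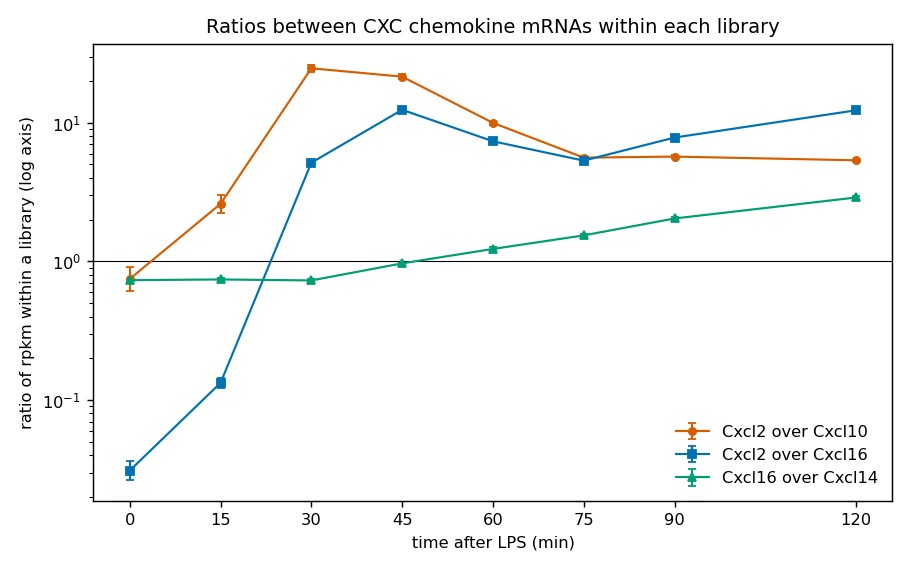
Ratio of the rpkm of 2 genes within a library (y axis, logarithmic) against time after LPS in min, with exact 95% intervals for counting error and a line at a ratio of 1. Cxcl2 over Cxcl10 was highest at 30 min (24.7) and came down to 5.36 at 120 min, and Cxcl16 over Cxcl14 rose from 0.732 to 2.89.

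The other CXC chemokine genes gave little signal in these cells. Of 9, Cxcl12 and Cxcl17 had no count, and Cxcl5, Cxcl13, Cxcl15, Ppbp and Pf4 (platelet factor 4) had at most 9 counts in any library. Cxcl9, the remaining Cxcr3 ligand, which is induced by interferon gamma, had 11 to 19 counts and was called at no time (ratio of 120 min to 0 min 1.38, 0.601 to 3.28). Cxcl3, a close relative of Cxcl2, was the one called, at 90 and 120 min. It had 0, 0, 1, 1, 3, 3, 6 and 19 counts in time order. At 120 min its normalised count was 15.4 (9.27 to 24), 6 times the limit that 3 counts set at 0 min (2.57). Of its 959 sequences of 58 bases, 98 came within 2 mismatches of Cxcl2, and the part of Cxcl2 reads in its counts was not tested.

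Of 9 receptors, Cxcr2, Cxcr3, Cxcr4 and Cxcr5 had more than a few counts. Cxcr2, the receptor of Cxcl1 and Cxcl2, went from 1261 to 2075 normalised counts and was called higher at 120 min, with a log2 ratio of 0.72 (0.63 to 0.81). Its trend over the 8 libraries did not pass (rho 0.74, exact permutation p = 0.0458, adjusted p = 0.0963). Cxcr3, the receptor of Cxcl10 and Cxcl11, went from 595 to 333 and was called lower at 120 min (log2 ratio -0.84, -1.02 to -0.66), with rho -0.93 (exact permutation p = 0.00223, adjusted p = 0.0114).

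Cxcr4, the receptor of Cxcl12, was called lower in every library from 60 min on and fell from 369 to 99.7 normalised counts (log2 ratio -1.89, -2.19 to -1.59), with rho -0.98 (exact permutation p = 3.97e-04, adjusted p = 0.00371). Cxcr5, the receptor of Cxcl13, was called lower at 75 and 90 min (log2 ratios -1.18 and -1.10) and not at 120 min. Cxcr6, the receptor of Cxcl16, had 0 counts at 0 min and 3 at 120 min. Cxcr1 and the atypical receptor Ccbp2 (Ackr2) also had few counts, and Darc (Ackr1) and Cxcr7 (Ackr3) had none. The ligands that rose thus stood beside a Cxcr2 called higher and a Cxcr3 called lower at 120 min. Their unadjusted p-values were 0.0435 and 0.0245 (exact negative binomial test of 2 libraries). Of all genes, 7.05% were called higher and 6.18% lower in this library. Cxcl1, with a smaller p at 120 min, lost its call with Benjamini-Hochberg adjustment, so neither receptor call would be kept by it.

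Of the proteases that act on CXC chemokines, Adam10 was called higher at 45 min only, with a log2 ratio of 0.87 (0.83 to 0.91), beside 3.42% of all genes. The unadjusted p of this Adam10 call was 0.014 (exact negative binomial test of 2 libraries). Its normalised count was 11344, 9611 and 9255 at 45, 75 and 90 min, libraries with a high share of Rn45s. It was 7649, 7148 and 7723 at 30, 60 and 120 min, where that share was low. The 15 min library, also with a high share, held 7635 and the 0 min library 6202. A link with the Rn45s share was not tested. Adam17, a sheddase of many membrane proteins, went from 35506 to 64201 normalised counts and was called higher at 90 and 120 min (log2 ratio at 120 min 0.85, 0.84 to 0.87), with rho 0.98 (exact permutation p = 3.97e-04, adjusted p = 0.00371). The unadjusted p-values of its calls were 0.0474 and 0.0146 (exact negative binomial test of 2 libraries). Cxcl16 at 90 min and Cxcl1 at 120 min had smaller ones and lost their calls with Benjamini-Hochberg adjustment. Neither Adam17 call would thus be kept by it. Dpp4, which trims Cxcl10 and Cxcl11, had no count. The genes around Cxcl10 and Cxcl11 were called at no time. At 120 min their log2 ratios were 0.45 for Sdad1, 0.40 for Nup54 and -0.56 for Naaa, and all 3 passed the trend with time (rho 0.98, 0.98 and -0.98, exact permutation p = 3.97e-04 and adjusted p = 0.00371 each). Art3, which spans both chemokine genes, did not (rho -0.02, adjusted p = 0.984 by the same permutation test), and it shares no sequence of 58 bases with their transcripts.

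**Figure D5:**
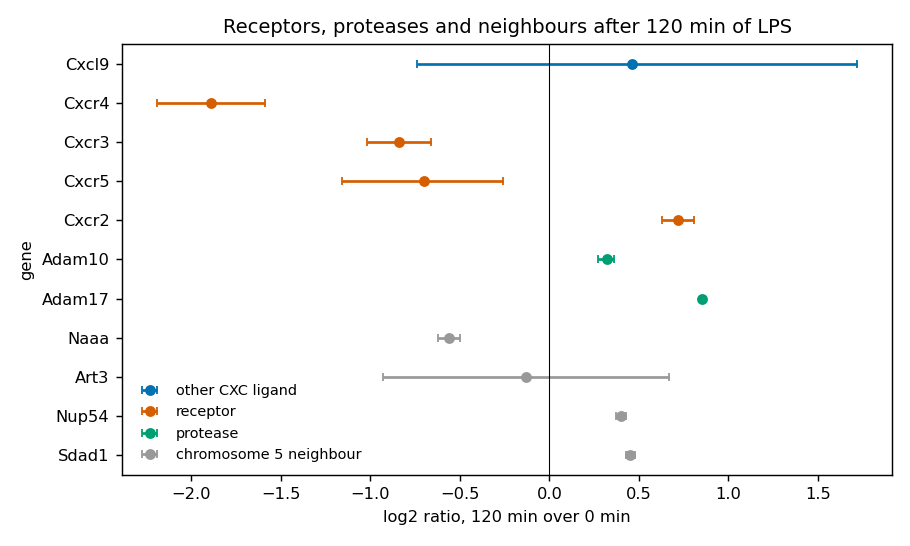
Log2 ratio of 120 min to 0 min (x axis) for the other CXC chemokine, receptor, protease and neighbouring genes with at least 10 counts at 120 min and a count at 0 min, with exact conditional binomial 95% intervals for counting error. Cxcr4 was lowest at -1.89, Cxcr3 was at -0.84, Cxcr2 at 0.72 and Adam17 at 0.85.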

How the data were processed

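RNA was sequenced with a stranded kit after ribosomal RNA removal. The authors deposited raw counts per RefSeq gene symbol, 1 column per time point; the submitters' processing notes name CASAVA 1.8.2, DESeq 1.10.1 and mm10, and the aligner's version is not given in the sources used here. Size factors (median of ratios), a blind parametric dispersion over the 8 libraries and exact negative binomial p-values were computed from them for 16967 genes with a count (6176 had none), after DESeq as in the study's methods, with Python 3.11.15, numpy 2.4.6 and scipy 1.17.1, and edgeR 4.0.16 as an alternative. With 1 library per time point no residual degrees of freedom were left for edgeR's quasi-likelihood test. Genes were named by fixed lists (the 6 genes, other CXC chemokines, receptors, proteases, neighbours) and as the 3 genes most correlated with each member that spans over 1 log2 unit. The members and lists were chosen with earlier results of these data known. For rpkm, lengths were the sequences of 58 bases unique to a gene (GENCODE vM21 transcripts matched by RefSeq accession), and the depth was the total count. Ratios have exact conditional binomial 95% intervals and single levels exact Poisson ones. In counts simulated for 120 min against 0 min for all 23143 genes, calls were judged on genes with a mean of at least 100. There, 200 of 200 genes changed 2-fold and 21 of 10294 unchanged genes were called. Genes as low as Cxcl1 and Cxcl11 were not judged. The simulation used a fixed dispersion below the one fitted to these libraries (0.0287 plus 0.853 divided by the mean). It therefore checks the code and does not give the sensitivity or the rate of false calls in these data.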

Additional observations from a re-analysis of the deposited data

How the results depend on the processing

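Of 112 counts of called chemokines under the alternatives, 110 stayed within 1.5 times the main count, and the exceptions were the number lower at 120 min, which was 1 (Cxcl14) in place of 0 with total counts without Rn45s and with a minimum mean normalised count of 10. This is a lenient measure. The number called lower was 0 at every time in the main analysis, and a change from 3 to 2 called higher stays within the limit. Single calls of Cxcl1, Cxcl11, Cxcl14 and Cxcl16 changed under some alternatives, and those of Cxcl2 and Cxcl10 under none. Total counts lowered all log2 ratios by up to 0.33 (75 min) and, at 120 min, by 0.20. The log2 ratio of 120 min to 0 min was then 6.97 for Cxcl10, -0.81 for Cxcl14 and 1.17 for Cxcl16, and without Rn45s in the totals 6.97, -0.80 and 1.18, while removal of a trend with transcript length gave -0.53 for Cxcl14. With Benjamini-Hochberg adjusted p the number in g0 was 2, as Cxcl1 joined Cxcl14. Leaving out the 15, 30, 45, 60, 75 or 90 min library, the number in g1 was 5 and the number in g0 was 1 each time, and without the 120 min library, added after the data were seen, they were 4 and 2, as Cxcl1 joined g0. With the longest transcript as the length, the shares were 59.7% for Cxcl14 and 37.2% for Cxcl16 at 0 min, and at 120 min 76.8% for Cxcl2, 15.1% for Cxcl10, 5.7% for Cxcl16 and 2.31% for Cxcl14. Cxcl2, Cxcl10, Cxcl11 and Cxcl16 rose and Cxcl14 fell with an adjusted p under 0.05 in all 5 alternative trend tests, with Cxcl16 nearest to the limit (rho 0.83, adjusted p = 0.045 by permutation, with total counts), and Cxcl1, tested where 1 count sufficed, did not pass (rho 0.81, adjusted p = 0.0878). Calls of Cxcl1 (at most 18 counts) and Cxcl11 are limited by depth. No paired analysis was possible because each time point has 1 library.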

Other observations

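The genes whose time course was most like that of each chemokine were ranked by Pearson's r of log2(normalised count + 1) over the 8 libraries, among 10494 genes with a mean of at least 100, as a description without a test, since libraries share depth and order. For Cxcl2 they were Tnfsf9 (0.991), a ligand of the tumour necrosis factor family, Egr2 (0.989), an immediate early transcription factor, and 4632427E13Rik (0.988). For Cxcl10 they were Gp49a (0.999), the cytokine Il1a (0.997) and Sdc4 (0.997), a cell surface proteoglycan. Il1a went from 5 counts at 0 min to 16662 at 120 min and Egr2 from 1589 to 26637. For Cxcl16 they were Tcf25 (0.998), Sdccag3 (0.997) and Nupr1 (0.996). For the sparser Cxcl11 they were Snhg4 (0.983), Zfp408 (0.983) and Irak3 (0.978), an inhibitor of Toll-like receptor signalling, and for Cxcl1, with at most 18 counts, Mphosph6 (0.977), Wdr13 (0.967) and Denr (0.960). Pearson's r compares shapes and not the size of a change. From 0 to 120 min Tnfsf9 rose 3.75-fold beside 1032-fold for Cxcl2, and Tcf25 1.33-fold beside 2.59-fold for Cxcl16. Snhg4 rose 1.71-fold beside 12.4-fold for Cxcl11, whereas Il1a rose 3157-fold beside 144-fold for Cxcl10.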
